A study of Homo sapiens with 4 samples.

Results

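Bidirectional promoter gene pairs are neighbouring genes that are read away from each other, on opposite DNA strands, from starts that lie close together. Here 2 genes formed a pair when GENCODE places them on opposite strands, they faced each other head to head without overlap, and at most 1 kb of DNA lay between their starts as the deposited gene tables give them. This gave 2494 pairs of 4940 genes, 8.60% of the 57428 genes with counts on their own strand (sense counts); 46 genes belonged to more than 1 pair. The distance between the starts had a median of 181 bases (quartiles 91 and 406.8, range 0 to 999). At the edge of the rule, 5 pairs lay over 990 bases apart, and 6 further pairs at most 10 bases beyond the limit were left outside. The cells were U2OS, a human osteosarcoma line, stably overexpressing GFP-DCP1a, a fluorescent form of a cofactor of mRNA decapping, and both groups carried this transgene. The hypertonic group (2 libraries) was kept in growth medium brought to 300 mM Na+ with concentrated phosphate-buffered saline, and the isotonic group (2 libraries) in medium at 150 mM Na+ given an equal volume of normal-strength saline. RNA made during 30 min with 2 mM bromouridine, a uridine analogue, was captured with an antibody and sequenced with 0 hours of chase (Bru-seq), so that counts reflect RNA being made rather than RNA already present. The labels do not say how long the cells were in the medium before labelling, or whether the 2 libraries of a group came from separate cultures. Every p-value therefore compares libraries, and their spread may be technical.

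Many human genes share a promoter region with a divergent neighbour. At such a site a single nucleosome-free stretch, usually rich in CpG and without a TATA box, holds 2 core promoters that face outwards, each with its own RNA polymerase II. Housekeeping functions such as DNA repair, mitochondria and protein synthesis are common among these genes, and the partner of a protein-coding gene is often a long non-coding RNA.

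The DNA between the starts is shown for 9 pairs that recur in the results, because it is the region that both partners have in common. Each line gives the plus-strand gene, the minus-strand gene and the bases between their starts, read 5′ to 3′ on the plus strand of GRCh38 (RefSeq promoter windows, GRCh38.p14). Capitals mark matches on either strand to 6 short motifs, which can overlap. The transcription factor NF-Y binds CCAAT. The letters TATAAA stand for the TATA box that positions the basal machinery. Factors of the ETS family recognise a core of CGGAAG. For NRF1, a regulator of nuclear genes for mitochondria, the part searched was CATGCGC. For YY1, a zinc finger factor, the part searched was ATGGCGG. SP1 recognises GC boxes, searched here as GGGCGG.
PAICS/PPAT: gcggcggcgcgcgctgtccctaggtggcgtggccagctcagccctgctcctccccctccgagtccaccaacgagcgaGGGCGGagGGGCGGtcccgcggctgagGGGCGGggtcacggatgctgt
COL4A2/COL4A1: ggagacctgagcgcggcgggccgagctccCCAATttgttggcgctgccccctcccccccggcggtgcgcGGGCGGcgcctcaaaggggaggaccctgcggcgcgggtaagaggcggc
SURF2/SURF1: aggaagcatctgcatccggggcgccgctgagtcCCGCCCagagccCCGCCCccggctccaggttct
SEC61B/ALG2: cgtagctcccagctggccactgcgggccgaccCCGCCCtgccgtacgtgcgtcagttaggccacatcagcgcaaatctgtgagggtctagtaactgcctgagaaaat
GOLT1B/RECQL: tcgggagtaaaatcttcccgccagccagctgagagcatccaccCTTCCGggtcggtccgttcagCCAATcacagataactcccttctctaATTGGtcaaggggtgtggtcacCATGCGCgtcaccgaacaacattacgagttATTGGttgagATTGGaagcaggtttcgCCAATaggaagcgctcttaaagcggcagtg
BORA/MZT1: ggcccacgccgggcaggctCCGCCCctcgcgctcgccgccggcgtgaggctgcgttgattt
ACP1/SH3YL1: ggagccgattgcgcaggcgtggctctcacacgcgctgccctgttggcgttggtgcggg
MRPS18C/HELQ: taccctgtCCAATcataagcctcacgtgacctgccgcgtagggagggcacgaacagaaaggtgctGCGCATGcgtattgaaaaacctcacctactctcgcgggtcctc
AFMID/TK1: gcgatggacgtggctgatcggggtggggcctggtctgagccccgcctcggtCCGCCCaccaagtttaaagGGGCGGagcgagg
PAICS/PPAT (chr4:56435616-56435740), COL4A2/COL4A1 (chr13:110307150-110307266) and SURF2/SURF1 (chr9:133356486-133356551) are long-known shared promoters. SEC61B/ALG2 (chr9:99221957-99222063), GOLT1B/RECQL (chr12:21501594-21501792) and BORA/MZT1 (chr13:72727688-72727748) had low counts of both partners in the hypertonic libraries. ACP1/SH3YL1 (chr2:264811-264868), MRPS18C/HELQ (chr4:83455857-83455964) and AFMID/TK1 (chr17:78187234-78187316) are 3 of the 6 pairs named further on for a large difference between partners. Among these 9 intervals the GC content ran from 52.8% to 77.0%. GOLT1B/RECQL held 7 motif matches, 5 of them to CCAAT, in 199 bases, and ACP1/SH3YL1 held 0 in 58 bases, where no match says only that these letters are absent from this stretch.

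Over a window from 250 bases before to 50 after the start, taken from RefSeq for the 3199 member genes whose symbol matched, the promoters were rich in GC and CpG. The 2833 of these with enough counts to be tested had a median GC content of 65.0% and a median of 26 CpG sites, against 63.7% and 23 in the 14631 tested genes that were not members. The share of windows with a match, in members and then in non-members, was 39.2% and 33.3% for the NF-Y motif, 35.9% and 25.0% for ETS, 7.62% and 5.70% for NRF1, 10.9% and 7.50% for YY1, 69.4% and 60.4% for SP1 and 4.98% and 7.42% for the TATA box; these shares had no test. Of all 35116 promoters in the RefSeq table, 34.6% held the NF-Y motif, 19.5% ETS, 4.43% NRF1, 5.55% YY1, 45.0% SP1 and 11.5% the TATA box. A match is a description of the letters, not of a bound site, and windows of 2 partners can overlap, so that members are not independent of each other.

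Protein-coding genes made up 2790 of the 4940 members, lincRNAs 675 and antisense RNAs 656. Both partners were protein-coding in 744 pairs, 1 of them in 1329 and neither in 421. The expression filter of edgeR kept 3374 member genes (68.3%, against 37.0% of all genes), and both partners passed in 1344 pairs, 1 partner in 718 and neither in 432. Among protein-coding genes 89.2% of members and 73.6% of all genes were kept. Per length, tested protein-coding members had a median level of 0.838 RPKM (the deposited level per length), against 0.593 RPKM for all tested protein-coding genes. Members held 19.1 ± 0.490% of sense counts in the hypertonic and 19.5 ± 0.396% in the isotonic libraries (SD, n = 2 each; exact two-sided permutation p = 0.667, where 2 against 2 libraries cannot go below 0.3333). For 3846 members (77.9%) the start equalled that in GENCODE release 29, and 1360 members overlapped another gene on their own strand, where counts can be split between genes.

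Some facts of the libraries bear on what follows. The tables held 23048409 to 44888307 counts per library. Sense counts were 89.5 ± 1.54% of them in the hypertonic and 93.4 ± 0.0126% in the isotonic libraries (SD, n = 2; exact permutation p = 0.3333), so the remaining entries carried more in both hypertonic libraries. These entries are the opposite strand, pooled shared regions (3.11 to 3.48% of counts) and genes left out, and the opposite strand was not counted alone. The protocol describes strand-specific synthesis for certain samples without naming them. The part of this in the results on weak partners was not tested. The 2 hypertonic libraries also stood apart by gene length: relative to the isotonic mean, the 937 tested members of 5 to 20 kb had a median log2 difference of -0.81 in hypertonic replicate 1 and 0.44 in replicate 2, and the 646 longer than 80 kb had 0.27 and -0.40. Of 7 mesenchymal markers expected in osteosarcoma cells, VIM measured 13.8 to 31.3 RPKM and COL1A2 at most 0.00202 RPKM, with the other 5 between 0.251 and 5.82 RPKM. Among markers of other cell types, CD3E (T cells), ALB (hepatocytes) and MYOD1 (muscle) were at 0 in all 4 libraries. Low values were found for others, with the epithelial EPCAM at 0.0427 to 0.212 RPKM, CDH1 at 0.00431 to 0.0157, the leukocyte PTPRC at 0.0193 to 0.0394 and the neuronal RBFOX3 at 0.021 to 0.0598 RPKM, each above 0 in all 4 libraries, and the epithelial KRT19 at 0 in 2 libraries and at most 0.00855 RPKM.

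Whether each partner differed between hypertonic and isotonic medium was asked first. In edgeR's quasi-likelihood test, 0 of 3374 members passed a Benjamini-Hochberg adjusted p of 0.05, as did 0.0% of all 21238 tested genes, and the lowest adjusted p of a member was 0.192. An unadjusted p under 0.05 was found for 315 members (9.34%), against 10.9% of all genes; of these, 223 were higher and 92 lower in the hypertonic libraries (6.61% and 2.73% of members, against 8.89% and 2.01% of all genes). With total-count scaling the split was 251 higher of 271, and with upper-quartile scaling 277 higher of 313. Shares over all genes were not computed for these 2 scalings. They also moved the median log2 fold change of all genes, from 0.04 to 0.26 and 0.23. Whether these splits are particular to members therefore cannot be said. DESeq2 called 72 members (2.13%, against 3.44% of all genes), 66 of them higher, beside 3.32% of all genes, and 6 lower, beside 0.118%. Without hypertonic replicate 2, edgeR called 741 of 3463 members (21.4%, against 21.4% of all 22940 genes then tested), 220 higher (6.35%, against 11.1%) and 521 lower (15.0%, against 10.3%). In that fit the lone hypertonic library is assumed to vary like the isotonic ones. A test-free count gave 715 members (21.2%) with both hypertonic libraries below both isotonic ones, against 17.5% of all tested genes, and 656 (19.4%) above, against 22.5%.

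The medians differed between protein-coding and other genes, without a test of that difference. For the 2488 tested protein-coding members the median log2 fold change (hypertonic over isotonic) was -0.15, beside -0.05 for all 14523 tested protein-coding genes. The 886 other members, mostly non-coding RNAs, had a median of 0.49, and all 6715 such genes one of 0.34. Over all members the median was -0.04, with 53.0% of members negative, against 0.04 and 47.6% over all genes. These medians depend on how the libraries are scaled. Total-count scaling moved the median of all genes to 0.26 and upper-quartile scaling to 0.23, and that of protein-coding members became 0.08 and 0.04; the median of other members stayed positive at 0.72 and 0.67. Hypertonic replicate 1 gave a median of -0.22 over all members relative to the isotonic mean and replicate 2 one of 0.10.

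Fold changes of the 2 partners of a pair were nearly unrelated. Of the 1344 pairs with both partners tested, both fold changes were negative in 402 (29.9%), both positive in 286 (21.3%), and opposite in 656 (48.8%). Across pairs the fold changes of the partners had a Pearson r of -0.05 and a Spearman rho of -0.004; partners share libraries and their depth, and pairs are not replicates, so these are descriptions. The median absolute difference between partners was 0.71 on the log2 scale. With total-count scaling the split was 200 both negative and 538 both positive, and with upper-quartile scaling 240 and 473, while the share with the same direction stayed between 48.9 and 58.8% in all the alternatives run. Where both partners were protein-coding (652 pairs), 57.2% had the same direction with an r of 0.01, a rho of 0.08 and a median difference of 0.55. Where a protein-coding gene faced another type (643 pairs), 45.3% had the same direction with an r of -0.15, a rho of -0.16 and a median difference of 0.90. The 614 pairs with a mean of at least 5 CPM (sense counts relative to the scaled library total) in both partners gave 58.8% in the same direction, 274 both negative and 87 both positive, an r of 0.03 and a rho of 0.08. Single genes in these pairs had a median fold change of -0.19. A lean of single genes to 1 side raises the share in the same direction even for unrelated partners, and how far was not computed.

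**Figure D1:**
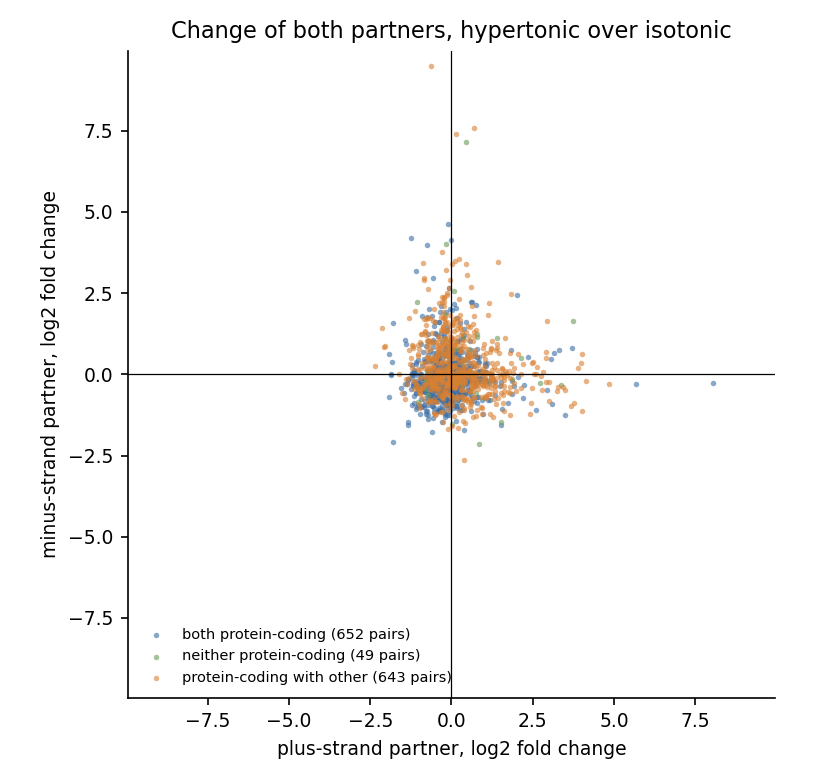
Log2 fold change (hypertonic over isotonic, edgeR) of the plus-strand partner (horizontal axis) and the minus-strand partner (vertical axis) for the 1344 pairs with both partners tested; each point is a pair, coloured by class. The points form a cross around 0 rather than a diagonal, with 48.8% in the quadrants of opposite sign and the largest values of one partner beside values near 0 of the other.

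Distance between the starts did not order the agreement. The r of the partners' fold changes was -0.09 in the 454 tested pairs up to 100 bases apart, 0.01 in the 553 at 101 to 300 bases and -0.10 in the 337 at 301 to 1000 bases, with 51.5%, 51.7% and 49.9% in the same direction. Other arrangements of neighbouring genes served as a comparison, and no test of the differences between arrangements was made. Head-to-head pairs more than 1 and at most 10 kb apart (917 tested) had an r of -0.05 and 49.7% in the same direction. Tail-to-tail pairs within 1 kb (454) had 0.07 and 54.4%, and same-strand neighbours within 1 kb (1324) had 0.14 and 57.1%.

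Differences between replicates give a scale for these values. Between hypertonic replicates 2 and 1 the partners' log2 differences had an r of 0.12, and between isotonic replicates 2 and 1 one of 0.13. Same-strand neighbours had 0.47 and 0.29, and tail-to-tail pairs 0.28 and 0.10. Mean log2 levels per length of the 2 partners had an r of 0.10 over divergent pairs, 0.25 where both were protein-coding, and 0.55 over same-strand neighbours. To see whether any response repeats at all, the change of a gene in hypertonic replicate 1 against isotonic replicate 1 was set against that in replicates 2, which share no library, and gave an r of 0.28 across members of tested pairs, and of 0.14 in the pairs with at least 5 CPM in both partners. The same change set against that of the partner in the other replicate gave -0.05 and, at that level, -0.04.

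**Figure D2:**
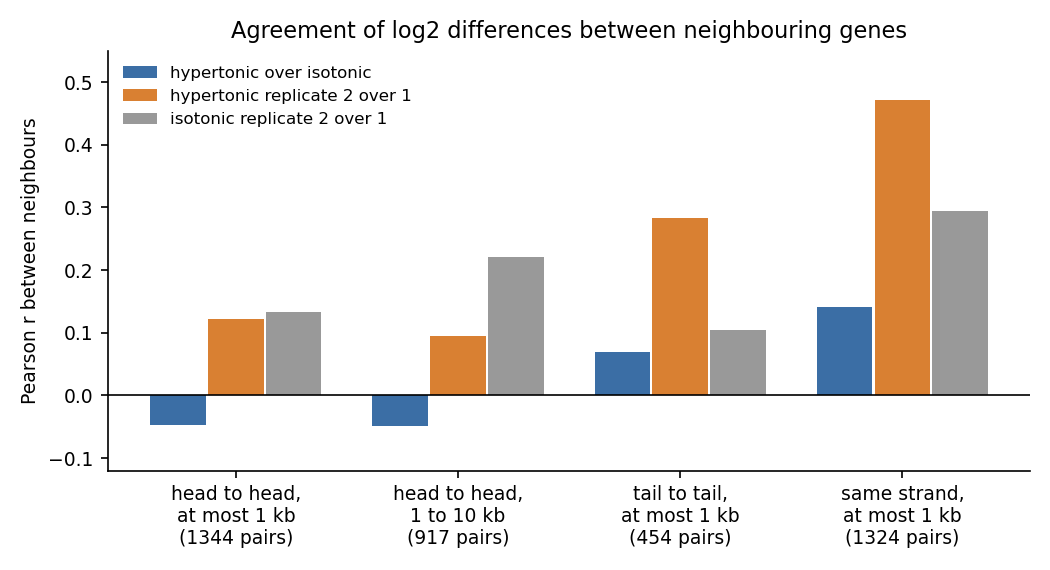
Pearson r between neighbouring genes (vertical axis) in the log2 difference of hypertonic over isotonic libraries and of replicate 2 over 1 within each medium, for 4 arrangements of neighbours (horizontal axis, number of tested pairs in brackets). The bars for hypertonic over isotonic run from -0.05 in both head-to-head classes to 0.14 in same-strand neighbours, which also have the tallest replicate bar, 0.47.

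The balance of a pair, the log2 ratio of the plus-strand to the minus-strand partner within a library, is a measure in which library scaling cancels apart from the prior count. In limma on these ratios, fitted over 4039 neighbouring pairs of all 4 arrangements, 0 of 1344 divergent pairs passed an adjusted p of 0.05 (0.0% of all pairs), with a lowest adjusted p of 0.115. An unadjusted p under 0.05 was found for 205 pairs (15.3%), against 17.4% of all 4039. Without hypertonic replicate 2 limma called 262 divergent pairs (18.7%, against 23.0% of all 4338 neighbouring pairs then fitted), and without hypertonic replicate 1 it called 126 (8.39%, against 6.87% of 4525); in both fits the lone hypertonic library is assumed to vary like the isotonic ones. Without either isotonic library it called 0. Of the 614 pairs with a mean of at least 5 CPM in both partners, 287 (46.7%) had hypertonic ratios that did not overlap the isotonic ones, against 48.9% of all 1448 neighbouring pairs at that level.

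Within a pair, the weaker partner stood relatively higher in the hypertonic libraries. Partners were ranked by mean RPKM over the same 4 libraries, and the median log2 fold change was -0.25 for the stronger and 0.23 for the weaker partner. The weaker partner had the higher fold change in 981 of 1344 pairs (73.0%), with a median difference of 0.51. In 580 pairs with levels over 4-fold apart this held in 83.6%, with a median difference of 0.89, and in 764 pairs with closer levels in 64.9%, with 0.31. Both hypertonic libraries showed the order: relative to the isotonic mean, stronger partners had medians of -0.55 in replicate 1 and -0.20 in replicate 2, and weaker partners -0.001 and 0.47. The difference within pairs was 0.51 to 0.52 under the 3 other scalings. Scaling shifts both partners of a pair nearly alike, so this is no check of the order. The same order was seen in other neighbours, where the weaker gene had the higher fold change in 69.7% of wider head-to-head, 66.7% of tail-to-tail and 74.2% of same-strand pairs, so it was not particular to divergent pairs. It followed level in all genes: tested members under 0.1 RPKM had a median of 0.80, those at 0.1 to 0.5 RPKM 0.23, at 0.5 to 2 RPKM -0.23 and above 2 RPKM -0.40, beside 0.63, 0.27, -0.15 and -0.37 over all tested genes of these levels. The expression filter can keep a weak gene through the counts of the group where it is high. How far this shaped these medians was not tested. With no filter beyond a total count of 1 the difference within pairs was 0.64. It was 0.35 in pairs with at least 5 CPM in both partners.

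**Figure D3:**
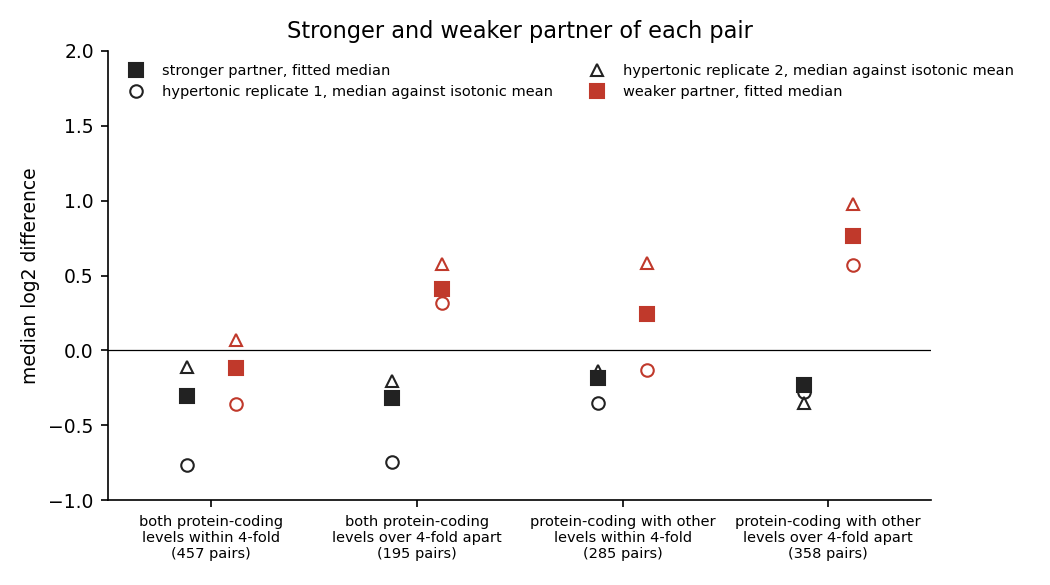
Median log2 difference (vertical axis) of the stronger (black) and weaker (red) partner, by pair class and by whether their levels per length differ over 4-fold (horizontal axis, number of pairs in brackets); squares are edgeR fold changes, circles and triangles hypertonic replicates 1 and 2 against the isotonic mean. In each column the red square lies above the black one. The gap is widest where a protein-coding gene and a gene of another type differ over 4-fold in level. There the squares lie at -0.23 for the stronger and 0.76 for the weaker partner. The median difference within these pairs, which is not drawn, was 1.06.

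Members just downstream of a more active gene on their own strand had high values in the hypertonic libraries. There were 74 tested members (2.19%, against 4.12% of all tested genes) whose start lay at most 10 kb past the 3′ end of a neighbour on the same strand with at least 4 times their level, and their median log2 fold change was 1.82, beside 1.90 for all 875 tested genes so placed. The other tested members had a median of -0.06. The rule picks genes weaker than their neighbour, and tested members under 0.1 RPKM had a median of 0.80 wherever they lay. The expression filter can also keep such a gene through the counts of the group where it is high. How far level and filter shaped the median of 1.82 was not tested. It was 1.73 with no filter beyond a total count of 1. Of the 72 members that DESeq2 called (2.13%, against 3.44% of all tested genes), 20 were of this kind. The matching share among all genes that DESeq2 called was not computed. In 0 pairs were both partners called, which says little about partners when so few members were called. The 6 that DESeq2 called lower were ALG2, RPL21, RPS26, GOLT1B, ABHD13 and ACP1. In pairs with neither partner so placed (1304 tested), the r between partners was -0.04 and 51.5% had the same direction.

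Well-known shared promoters are described next, each with CPM in hypertonic replicates 1 and 2 and then in isotonic replicates 1 and 2. PAICS and PPAT, enzymes of purine synthesis, measured 77.0 and 169 against 190 and 166 CPM for PAICS, and 101 and 77.6 against 137 and 91.5 CPM for PPAT. Their log2 fold changes were -0.53 ± 0.46 and -0.35 ± 0.41 (SE, n = 2 per group), and for each of them the groups overlapped. COL4A1 and COL4A2, the chains of the main type IV collagen of basement membranes, had nearly equal values of -0.65 ± 0.45 and -0.63 ± 0.42. COL4A2 measured 190 and 263 against 274 and 430 CPM, without overlap, and COL4A1 75.0 and 130 against 122 and 200 CPM, with overlap. The ratio of COL4A2 to COL4A1 kept within 1.02 to 1.34 (log2) in the 4 libraries, the difference in balance being 0.04 ± 0.60.

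Other classical pairs were less alike. SURF2, of the surfeit cluster, measured 10.7 and 12.3 against 3.78 and 4.23 CPM, a log2 fold change of 1.52 ± 0.60 (edgeR, adjusted p = 0.401), while SURF1, an assembly factor of cytochrome c oxidase, measured 1.99 and 4.52 against 4.39 and 3.25 CPM. SURF2 is one of the members that lie downstream of a more active gene. SERPINI1 (neuroserpin) measured 7.90 and 4.28 against 2.92 and 2.68 CPM, and PDCD10, a gene of cerebral cavernous malformation, 84.3 and 53.2 against 129 and 108 CPM. Neither of them overlapped between groups, and they lay in opposite directions, with a balance difference of 1.85 ± 0.60 (limma, adjusted p = 0.198). ATM, the DNA damage kinase, measured 302 and 158 against 186 and 201 CPM, and NPAT, an activator of histone genes, 103 and 74.7 against 104 and 129 CPM. MCM4, of the replicative helicase, measured 26.1 and 69.8 against 80.4 and 67.8 CPM, and PRKDC, the catalytic subunit of DNA-PK, 635 and 564 against 610 and 743 CPM. In both of these pairs the hypertonic replicates differed from each other by more than the groups did in at least 1 partner.

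The textbook pair SLC3A2/SNHG1 joins a protein-coding gene to a non-coding RNA. SLC3A2, the heavy chain of several amino acid transporters, measured 29.2 and 93.2 against 135 and 108 CPM. SNHG1, a host of small nucleolar RNAs, measured 263 and 45.0 against 216 and 226 CPM. The hypertonic libraries of SLC3A2 and SNHG1 departed in opposite ways, replicate 1 being low for SLC3A2 and replicate 2 low for SNHG1. Of the other textbook pairs looked for, HSPD1/HSPE1, GART/SON and SARS2/MRPS12 did not meet the rule by the deposited starts and strands.

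Pairs low in both partners were picked out by their values, and what follows describes them without a test of the choice. Of the 614 pairs with a mean of at least 5 CPM in both partners, 68 had both partners below, 9 both above and 40 in opposite directions without overlap of the groups. Both below made up 11.1% and both above 1.47%, against 8.08% and 1.8% of all 1448 neighbouring pairs at that level. Of the single genes in these pairs 29.8% lay below and 12.9% above, beside 17.5% and 22.5% of all tested genes of any level. The single-gene shares over all genes at that level were not computed, so this lean cannot be called particular to these pairs. For opposite directions the share over all neighbouring pairs was not computed, so the 40 cannot be called many or few. The lowest mean fold change was that of SEC61B/ALG2. SEC61B, of the protein channel of the endoplasmic reticulum, measured 4.86 and 12.3 against 31.4 and 27.8 CPM (log2 fold change -1.79 ± 0.61). ALG2, a mannosyltransferase of N-glycosylation in the same membrane, measured 2.58 and 3.26 against 15.6 and 9.29 CPM (-2.09 ± 0.65; DESeq2, adjusted p = 0.0196). Their balance differed by 0.10 ± 0.67.

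PSMB1, a proteasome subunit, measured 29.8 and 41.7 against 116 and 93.6 CPM, and its partner TBP, the TATA-binding protein, 7.94 and 24.1 against 42.8 and 39.0 CPM. GOLT1B, of Golgi transport, measured 8.32 and 19.0 against 57.1 and 47.2 CPM, and RECQL, a DNA helicase, 32.4 and 42.1 against 60.6 and 59.1 CPM. GOLT1B thus lay further below than RECQL, with log2 fold changes of -1.93 ± 0.55 and -0.68 ± 0.43. BORA, an activator of Aurora A, measured 21.6 and 29.2 against 65.6 and 40.0 CPM. MZT1, of the gamma-tubulin complex, measured 13.7 and 28.8 against 51.6 and 34.8 CPM, so that both partners had nearly the same fold change, -1.05 ± 0.48 and -1.02 ± 0.54. Also among the 8 lowest pairs were MIS12/DERL2, CISD2/UBE2D3 and ZNF189/MRPL50, with single-gene fold changes from -0.74 to -1.38. Hypertonic replicate 1 was the lower of the 2 in each gene of these 7 pairs except UBE2D3, where it was replicate 2.

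**Figure D4:**
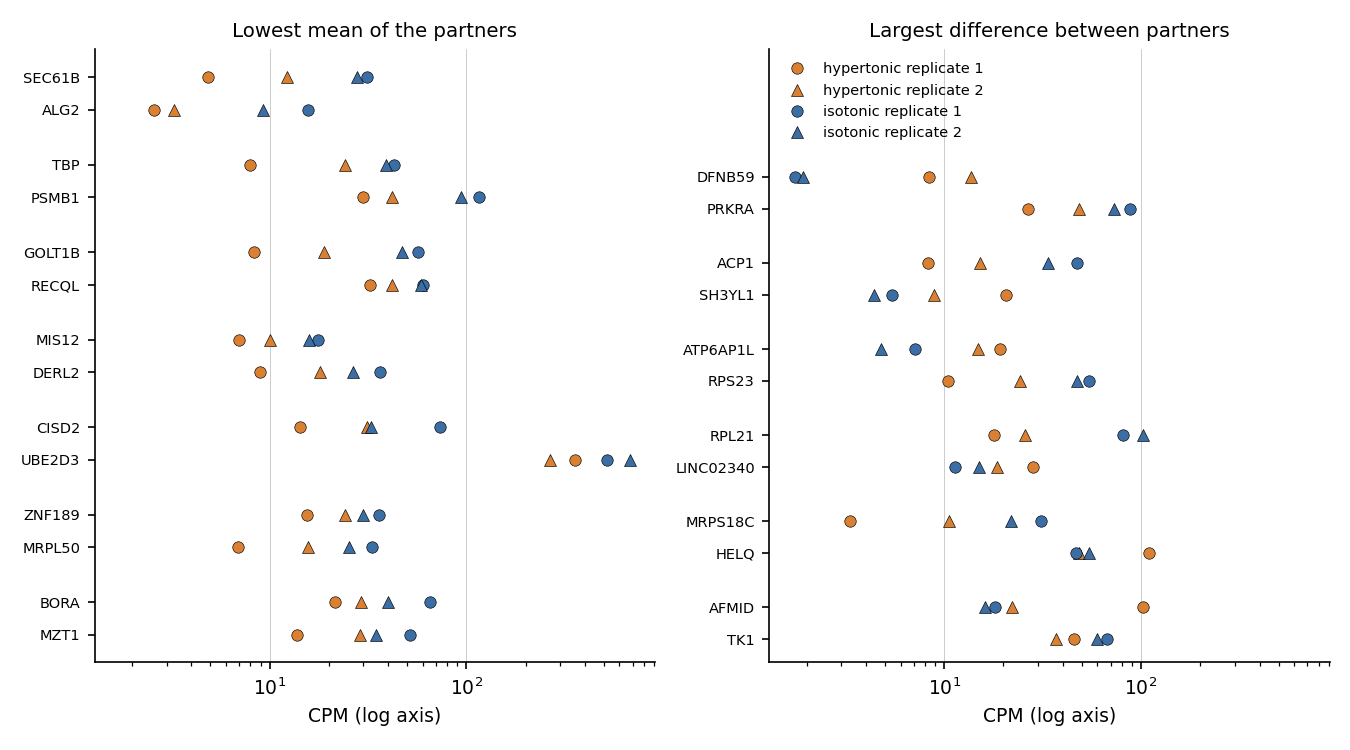
CPM in each library (horizontal log axis) for both partners (vertical axis, paired rows) of 7 of the 8 pairs with the lowest mean fold change (left) and the 6 with the largest difference between partners (right); orange marks are hypertonic, blue isotonic, circles replicate 1 and triangles replicate 2. On the left the orange marks of both partners lie left of the blue ones, and on the right they lie on opposite sides, apart from HELQ, where hypertonic replicate 2 at 48.5 CPM lies within the isotonic range.

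At the other end, the 4 pairs with the highest mean were DUBR/LINC00882, LMLN/IQCG, LCMT1/LCMT1-AS1 and RAD51C/TEX14. DUBR and LINC00882, both non-coding RNAs, measured 15.5 and 9.74 against 6.60 and 2.89 CPM, and 9.08 and 5.78 against 3.97 and 2.84 CPM. LMLN, a metallopeptidase gene downstream of a more active one, measured 53.1 and 32.3 against 8.58 and 8.21 CPM (log2 fold change 2.35 ± 0.53; DESeq2, adjusted p = 0.00271). Its partner IQCG measured 20.4 and 14.5 against 13.5 and 10.4 CPM. LCMT1-AS1 measured 10.9 and 10.4 against 2.40 and 2.58 CPM, while LCMT1, a methyltransferase acting on protein phosphatase 2A, lay slightly below at 47.1 and 44.2 against 57.9 and 50.2 CPM. TEX14, known from germ cells, measured 117 and 31.8 against 26.7 and 30.1 CPM, a value that rests on hypertonic replicate 1, and RAD51C, a gene of homologous recombination, 67.2 and 83.7 against 61.8 and 55.0 CPM.

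In the 6 pairs whose partners differed most, the fold change of 1 partner was negative and that of the other positive. They were chosen for that difference. DFNB59 (pejvakin, a hearing gene) measured 8.40 and 13.6 against 1.74 and 1.91 CPM, and PRKRA, an activator of the kinase PKR, 26.7 and 48.2 against 87.5 and 73.1 CPM. The difference in balance was 3.66 ± 0.60, at the lowest adjusted p of the limma fit, 0.115. ACP1, a small tyrosine phosphatase, measured 8.28 and 15.2 against 47.4 and 33.9 CPM, and SH3YL1, a lipid-binding protein, 20.6 and 8.88 against 5.44 and 4.39 CPM. The ratio of ACP1 to SH3YL1 was 3.10 and 2.93 (log2) in the isotonic and -1.31 and 0.77 in the hypertonic libraries.

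RPS23, a protein of the small ribosomal subunit, measured 10.4 and 24.3 against 54.2 and 47.2 CPM, and its partner ATP6AP1L 19.3 and 14.8 against 7.11 and 4.80 CPM. RPL21, of the large subunit, measured 17.9 and 25.6 against 81.2 and 103 CPM, and LINC02340 28.2 and 18.5 against 11.3 and 15.0 CPM. MRPS18C, of the mitochondrial ribosome, measured 3.34 and 10.6 against 31.1 and 21.8 CPM, and HELQ, a DNA helicase, 110 and 48.5 against 46.9 and 54.7 CPM. Here the groups overlapped for HELQ, and its difference rests on hypertonic replicate 1. AFMID, an enzyme of tryptophan breakdown, measured 103 and 22.1 against 18.0 and 16.1 CPM, again high in replicate 1, and TK1, thymidine kinase, 45.7 and 36.8 against 67.0 and 59.5 CPM.

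Members of 12 gene groups, set by symbol, were then counted. EdgeR called 0 members of each group, and the medians are descriptions. Of 21 tested cytosolic ribosomal protein genes 20 were negative, and the median was -0.52, against -0.63 for the 62 tested ones that were not members. Their 16 tested partners had a median of 0.14, and 6 of 16 pairs had the same direction. Under total-count scaling 17 of 21 were negative, with a median of -0.33; leaving out hypertonic replicate 1 moved it to -0.87 and leaving out replicate 2 to -0.81. RPS26 measured 3.00 and 11.4 against 31.4 and 27.8 CPM, and its partner, the antisense RNA AC034102.3, 0.887 and 1.53 against 0.466 and 0.877 CPM. DESeq2 called 2 of these genes, RPL21 and RPS26.

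Mitochondrial groups were also mostly negative, with hypertonic replicate 1 well below replicate 2. For 24 mitochondrial ribosomal protein genes, 20 were negative with a median of -0.40 (-1.09 in hypertonic replicate 1 and -0.15 in replicate 2). The 53 tested ones that were not members had a median of -0.46. For 28 respiratory chain genes, 26 were negative with a median of -0.48 (-1.07 and -0.05), against -0.43 for the 72 tested ones that were not members. Without hypertonic replicate 1 the counts of negative members were 15 of 24 and 16 of 28, with medians of -0.21 and -0.09, and without replicate 2 the medians were -1.14 and -1.13. Under total-count scaling they were -0.13 and -0.23. MRPL47 measured 16.6 and 30.3 against 63.2 and 48.7 CPM, and its partner NDUFB5, of respiratory complex I, was near level at 19.1 and 30.0 against 28.7 and 22.7 CPM. NDUFA4 measured 29.4 and 24.5 against 70.4 and 40.4 CPM, and NDUFB9 57.1 and 98.0 against 138 and 132 CPM.

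Splicing factor genes had 20 of 23 members negative, with a median of -0.56, against -0.52 for the 60 tested ones that were not members, and 10 of 19 pairs in the same direction. The median was -1.05 without hypertonic replicate 2, and -0.32 with 17 of 23 negative under total-count scaling. HNRNPK measured 117 and 126 against 263 and 268 CPM, a log2 fold change of -1.13 ± 0.38, and its partner RMI1, of the BLM complex that resolves DNA crossovers, 16.9 and 29.1 against 45.9 and 32.0 CPM. HNRNPA1 measured 51.7 and 43.8 against 92.4 and 122 CPM, while its partner CBX5, heterochromatin protein 1 alpha, measured 116 and 194 against 148 and 136 CPM. Each of these 4 genes overlaps another on its strand. Of 6 proteasome genes 5 were negative with a median of -0.78, against -0.52 for the 31 tested ones that were not members. The median was -0.26 with 4 of 6 negative without hypertonic replicate 1, -1.56 without replicate 2 and -0.48 under total-count scaling. PSMA7 measured 11.5 and 25.0 against 36.6 and 31.3 CPM and its partner SS18L1, of a chromatin remodelling complex, 19.1 and 61.6 against 29.2 and 56.0 CPM.

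Direction in some other groups turned with the scaling or with 1 library. DNA repair and replication genes had 29 of 39 negative with a median of -0.15, and 16 of 39 with 0.07 under total-count scaling; without hypertonic replicate 2 the median was -0.47. The same direction was found in 24 of their 37 tested pairs. Among them FANCB, of the Fanconi anaemia core complex, measured 13.1 and 16.1 against 31.8 and 31.6 CPM, and TYMS, thymidylate synthase, 34.9 and 95.3 against 164 and 121 CPM. Zinc finger genes had 46 of 75 negative with a median of -0.22, and 33 of 75 with 0.08 under total-count scaling; leaving out hypertonic replicate 1 gave a median of 0.02 and leaving out replicate 2 one of -0.75. ZNF425 measured 3.08 and 6.25 against 1.27 and 0.981 CPM and ZNF582 3.51 and 4.17 against 12.1 and 9.49 CPM. Histone genes had 8 of 13 negative, 4 of 13 under total-count scaling and 6 to 11 of 13 with 1 library left out. HIST1H2AC measured 29.4 and 36.2 against 64.0 and 51.9 CPM, while its partner HIST1H2BC measured 15.1 and 26.2 against 13.6 and 17.6 CPM. HIST2H2AC measured 1.56 and 1.45 against 4.19 and 2.84 CPM, and its partner HIST2H2BE was level at 7.94 and 8.41 against 7.90 and 8.62 CPM. Type IV collagen genes had 4 of 6 negative and 2 of 6 under total-count scaling, 6 of 6 without hypertonic replicate 1 and 2 of 6 without replicate 2 or isotonic replicate 1, with 1 of 3 pairs in the same direction.

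The smallest groups gave counts only. Of 5 aminoacyl-tRNA synthetase genes 4 were negative, with a median of -0.41, and all 5 pairs had the same direction; TARS measured 115 and 177 against 228 and 227 CPM, and RARS2 98.9 and 61.8 against 114 and 109 CPM. Without hypertonic replicate 1 the count was 2 of 5, with a median of 0.08, without replicate 2 the median was -0.86, and under total-count scaling it was -0.10. Of 5 snoRNA host genes 4 were negative, with a median of -0.52, and 2 of 5 with a median of 0.25 without hypertonic replicate 2 (3 of 5 with -0.22 without isotonic replicate 1); SNHG16 measured 53.8 and 62.6 against 99.1 and 91.4 CPM and SNHG22 12.8 and 15.8 against 5.98 and 8.36 CPM.

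Chaperone genes were split, with 8 of 14 negative and a median of -0.30, against -0.08 for the 46 tested ones that were not members. The median was -0.07 with 7 of 14 negative under total-count scaling, -0.15 without hypertonic replicate 1, -0.48 without replicate 2 and -0.19 without isotonic replicate 2. HSPA1A, the inducible HSP70, measured 5.41 and 15.0 against 2.38 and 2.63 CPM, and HSPA1L, its divergent relative, 3.12 and 6.76 against 1.08 and 0.723 CPM. Both partners lay above without overlap, with log2 fold changes of 2.03 ± 0.72 (edgeR, adjusted p = 0.349) and 2.44 ± 0.77 (edgeR, adjusted p = 0.297; DESeq2, adjusted p = 0.0396). HSPA1A has a near-identical copy, HSPA1B, so its counts are uncertain. HSPA2, an HSP70 best known from the testis, measured 16.0 and 5.89 against 0.932 and 0.516 CPM, a log2 fold change of 3.88 ± 0.82 (edgeR, adjusted p = 0.192; DESeq2, adjusted p = 4.21e-05), and lies downstream of a more active gene.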

How the data were processed

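Bromouridine-labelled RNA was measured in 4 libraries, 2 per medium, grouped by the labels' titles. Per the submitters' processing notes the authors used STAR 2.5.3a, Bowtie2 2.3.3, bedtools 2.16.2 and CASAVA 1.8.2 on hg38/GRCh38. The deposited tables have 105538 entries and no header. The authors deposited an expected count of reads and an RPKM value per gene and strand, both recognised from the values; the annotation release and counter are not given in the sources used here. RPKM, as the authors deposited it, was used to describe, rank and group levels, and in no test. Pooled shared-region entries (48, with 3.11 to 3.48% of counts), 45 pseudoautosomal copies and 259 genes without a GENCODE 29 match were left out.

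Expected counts of sense entries, rounded to whole numbers, were tested with edgeR 4.0.16 (TMM factors 0.947, 1.22, 0.974 and 0.887, filterByExpr, quasi-likelihood, Benjamini-Hochberg over 21238 genes). CPM uses TMM-scaled totals of sense counts, and a fold change's SE is its size over the square root of F. Partner ratios (log2 CPM, prior count 2) were tested with limma 3.58.1. DESeq2 1.42.0, R 4.3.3 and Python 3.11.15 (pandas 2.3.3, matplotlib 3.10.9) were also used. Both fits were run on simulated counts, with large changes in well-counted genes and a set spread between libraries. That run does not show their power at the spread of these data. Gene lists were restricted to protein-coding genes, except snoRNA hosts.

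Members, lists and tests were chosen with earlier results of these data known. The named pairs were textbook pairs, the 8 lowest and 4 highest by mean fold change among pairs with a mean of at least 5 CPM in both partners and no overlap between groups in either, the 6 with the largest difference between partners without overlap of their ratios, and in each list the 2 members of lowest p, with their partners where useful. Some named pairs and markers are not reported here. Counts are of reads, not molecules.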

Additional observations from a re-analysis of the deposited data

How the results depend on the processing

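Each group has 2 libraries, and the hypertonic ones differ from each other by gene length. Partner agreement stayed weak in the alternatives run; directions are compared here as shares of tested pairs, a form chosen after seeing the data because the number of tested pairs differs between settings. Under total-count scaling 14.9% of pairs were both lower, 40.0% both higher and 45.1% opposite, and under upper-quartile scaling 35.2% were both higher and 46.9% opposite. With no filter beyond a total count of 1, 64 members were called (1.48%, against 2.45% of all genes), 61 of them higher (1.41%, against 2.33%). In that setting r was 0.0296, the median absolute difference 0.92 and the weaker-minus-stronger difference 0.641. DESeq2 called 72 members (2.13%, against 3.44%). The replicate numbers only name the libraries (deviations of same-numbered libraries correlated at 0.0247). With the replicate block 31 members were called (0.919%, against 1.81% of all genes), 30 of them higher (0.889%, against 1.79%). Called pair balances numbered 16 (1.19%, against 1.56% of all neighbouring pairs), r was -0.0561, and LMLN, RPL21 and HSPA2 were the named genes called. Leaving out 1 library gave 0 to 741 called members and 0 to 262 balances, the highest without hypertonic replicate 2 (21.4% of members and of all genes, and 18.7% of divergent against 23.0% of all neighbouring pairs). It also gave 44.9 to 51.1% opposite pairs, r from -0.0376 to 0.0512, a median absolute difference of 0.825 to 1.06 and a weaker-minus-stronger difference of 0.505 to 0.727. Starts at most 300 bases apart gave an r of -0.0341. Pairs without same-strand overlap gave 50.6% opposite, r = -0.0412 and a weaker-minus-stronger difference of 0.561. Pairs with at least 5 CPM in both partners gave 44.6% both lower, 41.2% opposite, r = 0.0296, a median absolute difference of 0.52 and a weaker-minus-stronger difference of 0.353; this setting, and all those for the weaker-minus-stronger and downstream medians, were added after seeing the data. The cause of these moves was not tested.

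Of the named genes, SNHG1, HELQ and HIST1H2BC were the ones that turned sign from a fold change beyond 0.4. Total-count and upper-quartile scaling gave PRKDC 0.04 and 0.02, HIST2H2BE 0.21 and 0.17, NDUFB5 0.19 and 0.11, SS18L1 0.26 and 0.09, and ORC3 0.07 and 0.1, and total-count scaling gave SURF1 0.04. Leaving out 1 library gave ATM -0.33 to 0.64, SURF1 -0.95 to 0.2, SNHG1 -2.33 to 0.25, HELQ -0.1 to 1.11, HIST1H2BC -0.05 to 0.72, HIST2H2BE -0.11 to 0.01, NDUFB5 -0.43 to 0.19, ZNF398 -0.32 to 0.45, SS18L1 -1.16 to 0.5, ORC3 -0.51 to 0.19, CBX5 -0.3 to 0.42, AC015802.4 -1.07 to 0.7. With the replicate block AC015802.4 gave -0.15.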
